A study of Mus musculus with 4 samples.

Results

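Type I interferon response genes were followed in 4 spatial transcriptomes of MC38 tumors. The genes were named by symbol: Ifit1, Ifit2, Ifit3, Ifit3b, Isg15, Oasl2, Mx1, Rsad2, Usp18 and Irf7. Of these 10 symbols, 9 matched a row among the 32285 genes of the count tables. Mx1 matched no symbol and was not analysed here. MC38 is a mouse colon carcinoma line derived from the C57BL/6 strain, and cells were grown under the skin of female mice aged 8 to 12 weeks. The hosts were F1 mice from crosses of C57BL/6J with the Collaborative Cross, a panel of recombinant inbred strains. The other parent was CC075/UncJ for the 2 tumors called CC075F1 here, a cross the study classes as responding to anti-PD-1. It was CC080/TauUncJ for the 2 tumors called CC080F1, a cross classed as non-responding. All mice had received 1 dose of 200 µg of the isotype control antibody 2A3 into the peritoneum once the tumor had reached 75 to 110 mm3. Mice were killed 48 hours after that dose, so no tumor treated with anti-PD-1 entered these data. Every tumor came from the same cell line, and every host had a C57BL/6J parent.

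Type I interferons, the interferon-α family and interferon-β, are secreted by cells that sense nucleic acids in the wrong place. They bind the receptor chains Ifnar1 and Ifnar2, and the kinases Jak1 and Tyk2 then activate ISGF3, a complex that holds Stat2 and Irf9. ISGF3 binds the interferon-stimulated response element (ISRE) in the promoters of many antiviral genes, and Irf7, itself such a gene, feeds back by raising interferon-α transcription. IFN-γ, which T cells and NK cells make, acts through a receptor of its own, and Cxcl9, a chemokine that draws T cells through the receptor Cxcr3, is a marker of that response. The question here was how each type I gene was placed in the sections of both crosses, whether the genes moved together from spot to spot, and whether they followed Cxcl9.

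Sequences before the start sites of these genes are shown because the members vary together in the data below and type I genes are known for a shared response element. RefSeq promoters on GRCm38.p6 (250 bases before to 50 after the start, in the direction of transcription) matched 8 of the 9 members. The ISRE core was searched as GAAANNGAAA on either strand, which reads TTTCNNTTTC on the other. It was present in 5 of these 8 members, Ifit1, Ifit3, Ifit3b, Isg15 and Rsad2, against 3.44% of all 32851 promoters of that length. The windows of Ifit2, Oasl2, Irf7 and Cxcl9 held no match, which says only that these letters are not in those 300 bases. The 150 bases from 200 to 51 bases before the start follow, 5′ to 3′, with ISRE core matches in capitals. They lie at chr19:34640689-34640838 (plus strand) for Ifit1, chr19:34583329-34583478 (plus) for Ifit3, chr19:34607757-34607906 (plus) for Ifit3b, chr4:156200869-156201018 (minus) for Isg15, chr12:26456503-26456652 (minus) for Rsad2 and chr5:92328130-92328279 (minus) for Cxcl9.
Cxcl9: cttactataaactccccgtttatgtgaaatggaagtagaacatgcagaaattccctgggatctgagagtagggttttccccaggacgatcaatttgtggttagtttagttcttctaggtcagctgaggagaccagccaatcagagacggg
Ifit1: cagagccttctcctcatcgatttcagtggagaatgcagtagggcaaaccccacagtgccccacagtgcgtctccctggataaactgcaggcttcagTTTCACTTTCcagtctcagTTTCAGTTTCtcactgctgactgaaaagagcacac
Ifit3: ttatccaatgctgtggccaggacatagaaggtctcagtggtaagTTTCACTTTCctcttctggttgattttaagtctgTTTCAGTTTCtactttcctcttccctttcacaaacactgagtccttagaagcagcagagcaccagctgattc
Ifit3b: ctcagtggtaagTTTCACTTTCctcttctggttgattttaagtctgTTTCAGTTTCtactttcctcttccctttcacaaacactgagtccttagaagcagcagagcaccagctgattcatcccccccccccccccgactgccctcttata
Isg15: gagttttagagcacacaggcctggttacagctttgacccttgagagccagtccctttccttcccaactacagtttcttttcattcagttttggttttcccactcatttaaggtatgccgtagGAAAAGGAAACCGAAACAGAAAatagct
Rsad2: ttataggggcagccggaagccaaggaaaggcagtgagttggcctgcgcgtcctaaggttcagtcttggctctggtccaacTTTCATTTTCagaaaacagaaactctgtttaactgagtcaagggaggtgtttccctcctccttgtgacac

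Ifit1 held matches starting 104 and 85 bases before its start. Isg15 held 3 overlapping matches between 78 and 66 bases before its start, and Rsad2 held 1 at 120 bases. Ifit3 and Ifit3b each held 2 matches spaced by 34 bases, at 156 and 122 bases in Ifit3 and at 188 and 154 bases in Ifit3b. The 2 genes are near copies: their GENCODE transcripts were 98.0% identical over 1697 aligned bases, and 35.1% of the 90-base stretches of Ifit3 occurred unchanged in Ifit3b. How reads were divided between this pair is therefore uncertain. The Ifit genes sit side by side on chromosome 19, from Ifit2 (34550694 to 34576419) through Ifit3 (34583531 to 34588731) and Ifit3b (34607970 to 34613401) to Ifit1 (34640871 to 34650009) on GRCm38. The IFN-γ-activated site was searched as TTCNNNGAA, which reads the same on both strands. It was present in 8.30% of all promoters and, among those of the members and Cxcl9, in 1 of Ifit2, 241 bases before the start.

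A Visium spot collects RNA from several cells, so fewer cells of a type and less RNA per cell cannot be told apart in these values. The sections held 2710 to 3276 spots and 82594649 to 146460975 UMIs (unique molecular identifiers, each marking 1 captured RNA molecule), with medians of 31139 to 41740 UMIs per spot. Levels are given as CPM, in which the UMIs of a gene are scaled by the total UMIs of the section. CC075F1 replicate 2 was the deepest section and held 126 spots with over 1000 CPM of skeletal muscle, keratinocyte and adipocyte markers together, where the other sections held 1 to 8. All 5 tumor and epithelial markers checked (Shisal2b, Krt7, Krt8, Krt18 and Krt19) had counts in every section, at 123 to 268 CPM together. The labels name 1 slide format for sections of 4 blocks and give no batch or date, so a batch and the cross cannot be told apart.

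Isg15, which encodes a ubiquitin-like protein that is attached to other proteins during the response, measured 52.3 and 73.9 CPM in CC075F1 replicates 1 and 2 and 82.2 and 121 CPM in CC080F1 replicates 1 and 2. Usp18, the protease that removes Isg15 from proteins and dampens the interferon receptor, measured 12.2 and 8.12 CPM in CC075F1 against 12.9 and 17.6 CPM in CC080F1. Irf7, the transcription factor of the feedback loop, measured 34.3 and 36.9 CPM in CC075F1 against 48.2 and 75.1 CPM in CC080F1. For these 3 genes both CC075F1 sections lay below both CC080F1 sections, and so did Ifit3b, at 6.74 and 2.45 CPM against 7.95 and 9.20 CPM. No member was higher in both CC075F1 sections than in both CC080F1 sections. A gap of the lower kind was common: 30.3% of the 15572 genes tested were lower in both CC075F1 sections, and 6.63% were higher in both.

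The other members overlapped between the crosses. Ifit1, which binds the ends of foreign RNA, measured 27.2 and 8.60 CPM in CC075F1 and 29.4 and 26.5 CPM in CC080F1. Ifit2 measured 21.4 and 7.70 CPM against 22.1 and 19.1 CPM. Ifit3, a partner of Ifit1, measured 43.0 and 15.4 CPM against 38.9 and 49.6 CPM. In all 3 genes CC075F1 replicate 2 was the low section and CC075F1 replicate 1 lay close to the CC080F1 sections. Rsad2 (viperin), an enzyme that makes a chain-terminating nucleotide, measured 48.7 and 17.0 CPM against 50.9 and 48.6 CPM, with the same section low. Oasl2, of the oligoadenylate synthetase family, measured 46.6 and 27.3 CPM against 43.9 and 56.8 CPM. Cxcl9 had the other order: 315 and 301 CPM in CC075F1 against 49.3 and 118 CPM in CC080F1, with no overlap.

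**Figure D1:**
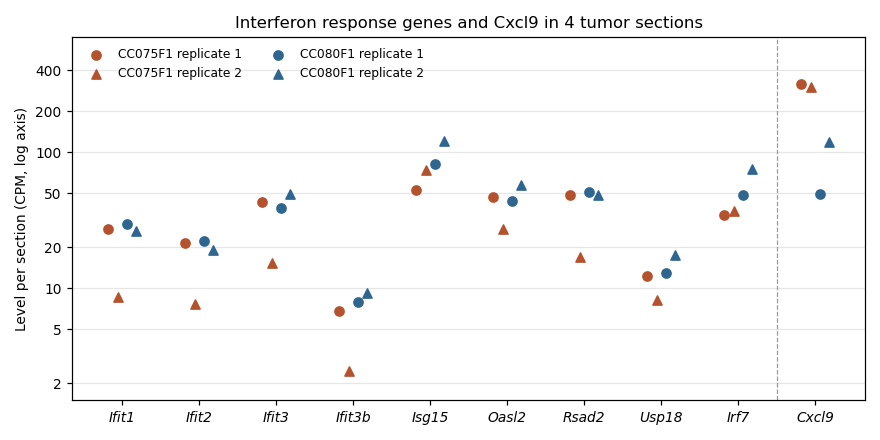
Level of each member and of Cxcl9 in the 4 sections, as CPM on a log axis, with 1 point per section (orange CC075F1, blue CC080F1, circles replicate 1, triangles replicate 2). The orange triangle is the lowest point for every member except Isg15 and Irf7, and Cxcl9 alone has both orange points above both blue points.

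No member passed the test between the crosses. In edgeR's quasi-likelihood fit of the section sums, 0 of 9 members were called at an adjusted p of 0.05 (Benjamini-Hochberg over all 15572 genes), where 14 genes, 0.0899%, were called in all. None had an unadjusted p under 0.05, where 846 of the 15572 genes did, and DESeq2 also called 0 of 9. All 9 estimates were lower in CC075F1, from -0.19 (SE 0.22) for Oasl2 to -0.70 (SE 0.34, adjusted p 0.830) for Ifit3b on the log2 scale, with a median of -0.40 against -0.02 over all genes. With library size in place of TMM factors the medians moved to -0.60 for the members and -0.31 for all genes. Without CC075F1 replicate 2 the members' median was -0.07 and 4 of 9 were higher in CC075F1, and without CC075F1 replicate 1 it was -0.83. Without CC080F1 replicate 1 it was -0.57, and without CC080F1 replicate 2 it was -0.13 with 3 of 9 higher. The size of the members' estimates thus moved with each section left out. Cxcl9 measured 2.18 higher in CC075F1 (SE 0.47, adjusted p 0.332 in edgeR and 7.33e-05 in DESeq2). Reads of both crosses were counted on the C57BL/6 reference, and its effect on genes that differ on the Collaborative Cross haplotype was not tested.

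The summed level of the 9 members was 293 and 197 CPM in CC075F1 and 337 and 423 CPM in CC080F1. Set against Cxcl9, this gave ratios of 0.929 and 0.655 in CC075F1 and of 6.82 and 3.57 in CC080F1. The strain means were 0.792 ± 0.194 and 5.20 ± 2.30 (SD, n = 2), and the exact two-sided permutation test gave p = 0.333, the smallest that 2 sections against 2 allow. The members and Cxcl9 thus differed in their proportions far more between the crosses than between sections of a cross, in a design too small to pass a threshold. Most of this lay in Cxcl9, whose mean CPM differed by 1.88 on the log2 scale (CC075F1 over CC080F1). The members' sum differed by -0.63, where the median gene had -0.31 with library size alone. The make-up of the sum varied too. Isg15 made up 17.9% and 37.4% of the sum in CC075F1 and 24.4% and 28.5% in CC080F1, and its ratio to Rsad2 was 1.07 and 4.35 in CC075F1 against 1.62 and 2.48 in CC080F1. The share of Ifit3b in the Ifit3 and Ifit3b pair was 13.6% and 13.7% in CC075F1 and 17.0% and 15.6% in CC080F1, without overlap, though reads of this pair are hard to assign. CC075F1 replicate 2 was the lowest of the 4 sections for every member except Isg15 and Irf7, which were lowest in CC075F1 replicate 1.

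Single members were sparse in the spots. Isg15 was seen in 65.5% of spots in CC075F1 replicate 1 (95% exact interval 63.7 to 67.3%) and 87.4% in CC080F1 replicate 2 (86.2 to 88.5%), with the other sections between them. Ifit3b was the rarest member, in 8.79% of spots in CC075F1 replicate 2 and 23.4% in CC080F1 replicate 2. These intervals cover counting error alone, and the shares rise with depth: after every spot was thinned to 10000 UMIs, Isg15 was seen in 36.6% and 61.1% of spots of those sections. The highest count in a spot was 73 UMIs, for Rsad2 in CC075F1 replicate 1, where its mean was 1.48 UMIs per spot. The summed level varied within sections, from a 10th percentile of 55.5 to 132 CPM to a 90th percentile of 397 to 851 CPM.

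Around the members, the sensing and signalling genes were measured as well. Of 18 type I interferon genes in the tables, 15 or 16 had 0 UMIs in a section, where a count of 0 allows up to 3 UMIs or 0.0205 to 0.0363 CPM. Ifnb1, interferon-β, had 6 to 14 UMIs per section, the interferon-α genes together had 0 or 1, and the remaining signal was Ifnz, with 56 to 73 UMIs. Siglech, a marker of plasmacytoid dendritic cells, a professional source of interferon-α, had 5 to 33 UMIs per section. No gene of the receptor and Janus kinase list (4 tested), of nucleic acid sensing (13 tested) or of the 30 other interferon-stimulated genes tested was called between the crosses. Their medians were -0.05, -0.13 and -0.11 on the log2 scale. Stat2, at -0.14 (SE 0.25), and Irf9, at 0.10 (SE 0.22), were not called either. Ifi27l2a measured -1.24 (SE 0.39, adjusted p 0.653). Of 14 IFN-γ-led genes, 2 were higher in CC075F1, H2-Eb1 among them at 3.66 (SE 0.34, adjusted p 0.0263), with a median of 1.80.

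The members rose and fell together from spot to spot. Over the spots with at least 1000 UMIs, all 36 pairs of the 9 members had a positive Spearman rho in every section. The median pair was 0.190 and 0.141 in CC075F1 and 0.189 and 0.246 in CC080F1. Among all pairs of genes in the members' range of levels, the median was 0.012 to 0.033 and the 95th percentile 0.046 to 0.074. These are weak values in sparse counts, given as a description: the points are spots of 1 library that share neighbours and depth. After thinning to 10000 UMIs the members' medians were 0.074 to 0.144, against 0.0006 to 0.0024 for all pairs. Summed over tiles of up to 16 neighbouring spots (170 to 210 tiles per section), the members' mean over sections was 0.49, and all pairs had a median of 0.017 to 0.059 and a 99th percentile of 0.24 to 0.41.

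The strongest pair on average was Ifit3 with Isg15, at 0.33 (0.29 to 0.40 over sections), followed by Isg15 with Irf7 at 0.31. The near copies Ifit3 and Ifit3b reached 0.23, less than Ifit3 with Rsad2 at 0.28. Ifit2 was the loosest member, at 0.12 with Ifit1 and 0.18 with the sum of the other members, against 0.43 for Isg15. With Cxcl9, every member had a lower rho than with the sum of the other members. Gene against gene this did not always hold. Irf7 had 0.18 with Cxcl9 and 0.16 with Ifit1, and Oasl2 had 0.16 with Cxcl9 and 0.13 with Ifit2. The rho with Cxcl9 was highest for Irf7 at 0.18, Oasl2 at 0.16 and Isg15 at 0.12, and it was close to 0 for Ifit1 at 0.03 and Rsad2 at -0.004. In CC075F1 replicate 2 Irf7 reached 0.28 with Cxcl9 where Rsad2 had -0.11, so the members parted from each other there.

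**Figure D2:**
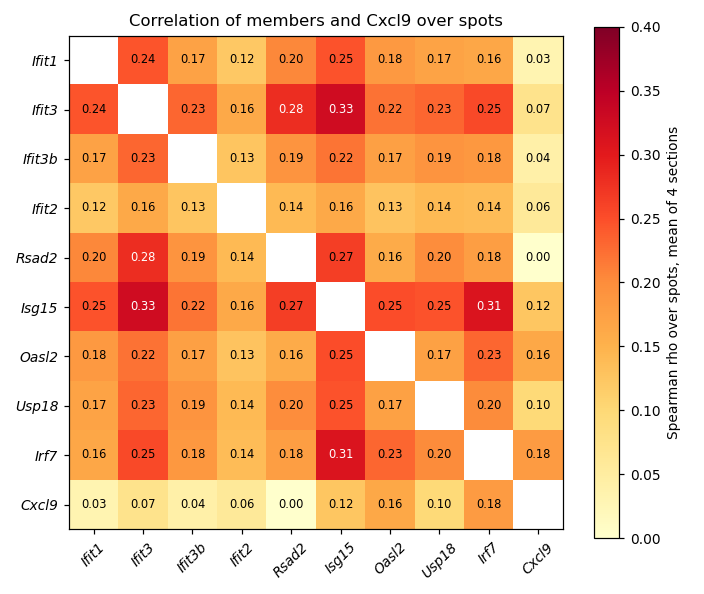
Spearman rho over spots between each pair of members and Cxcl9, as the mean of the 4 sections, with color from 0 to 0.4. Every pair of members is positive, Isg15 and Ifit3 form the darkest cells, and the Cxcl9 row and column are paler than most, darkest for Irf7 (0.18) and close to 0 for Rsad2 and Ifit1.

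Genes outside the list with the most similar placement were sought among 7079 genes of at least 10 CPM in every section, by their mean rho with the members' sum. Cxcl10 was the closest, at 0.44, and the genes near the top included Ifitm3 (0.36), Bst2 (0.36), Ifi27l2a (0.34), Rtp4 (0.33), Ly6e (0.30), Ly6a (0.30), Zbp1 (0.29) and Lgals3bp (0.29). The median gene had -0.0016, and Cxcl9 had rank 57 in this order. Ly6a was also among the 10 genes most like Cxcl9, which were led by AW112010 (0.49) and the MHC class II genes Cd74 (0.48) and H2-Ab1. Cxcl10, another chemokine for Cxcr3, had 0.36 with Cxcl9.

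The sum of the members was grouped in space. Moran's I, computed on log2(CPM + 1) with the 6 adjacent positions of each spot and near 0 for a random scatter, was 0.259 and 0.176 in CC075F1 and 0.338 and 0.244 in CC080F1. That of Cxcl9 was 0.288 and 0.399 in CC075F1 and 0.221 and 0.368 in CC080F1. Single genes in the members' range had a median of 0.032 to 0.075 and a 95th percentile of 0.082 to 0.175. A sum of 9 genes is less sparse than a single gene, so the 2 are not alike. Single members ran from 0.031 for Ifit3b in CC075F1 replicate 2 to 0.231 for Ifit3 in CC075F1 replicate 1. In CC075F1 replicate 2, Ifit3b and Ifit2 (0.032) lay below the median gene of that section (0.038). Cxcl9 was the more grouped in 3 sections and the members in CC080F1 replicate 1, where the order turned after thinning to 10000 UMIs (0.146 for the members and 0.155 for Cxcl9). Of the neighbors of spots in the top 10% of a section for the members, 23.5 to 37.0% were in that top 10% too.

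The members' placement overlapped with that of Cxcl9 in part. The rho of the summed members with Cxcl9 of the same spot was 0.075 and 0.284 in CC075F1 and 0.177 and 0.222 in CC080F1. With the mean Cxcl9 of the neighboring spots it was -0.010 and 0.202 in CC075F1 and 0.194 and 0.213 in CC080F1. Both values were near 0 for CC075F1 replicate 1, and in the other 3 sections both were positive. Summed over tiles, the rho of the members with Cxcl9 was -0.13 and 0.33 in CC075F1 and 0.34 and 0.38 in CC080F1. It was thus negative in CC075F1 replicate 1. The median gene in the members' range had 0.05 and 0.19 in CC075F1 and 0.06 and 0.12 in CC080F1. The 95th percentile of these genes was 0.30 and 0.54 in CC075F1 and 0.24 and 0.39 in CC080F1. The members' sum passed it in CC080F1 replicate 1 alone. Of the top 10% of spots for the members, 12.2% and 20.7% in CC075F1 and 26.5% and 16.4% in CC080F1 were also in the top 10% for Cxcl9, where 10.0% of all spots were. The maps show members in scattered patches, and Cxcl9 in broad fields along parts of the rim in CC075F1.

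**Figure D3:**
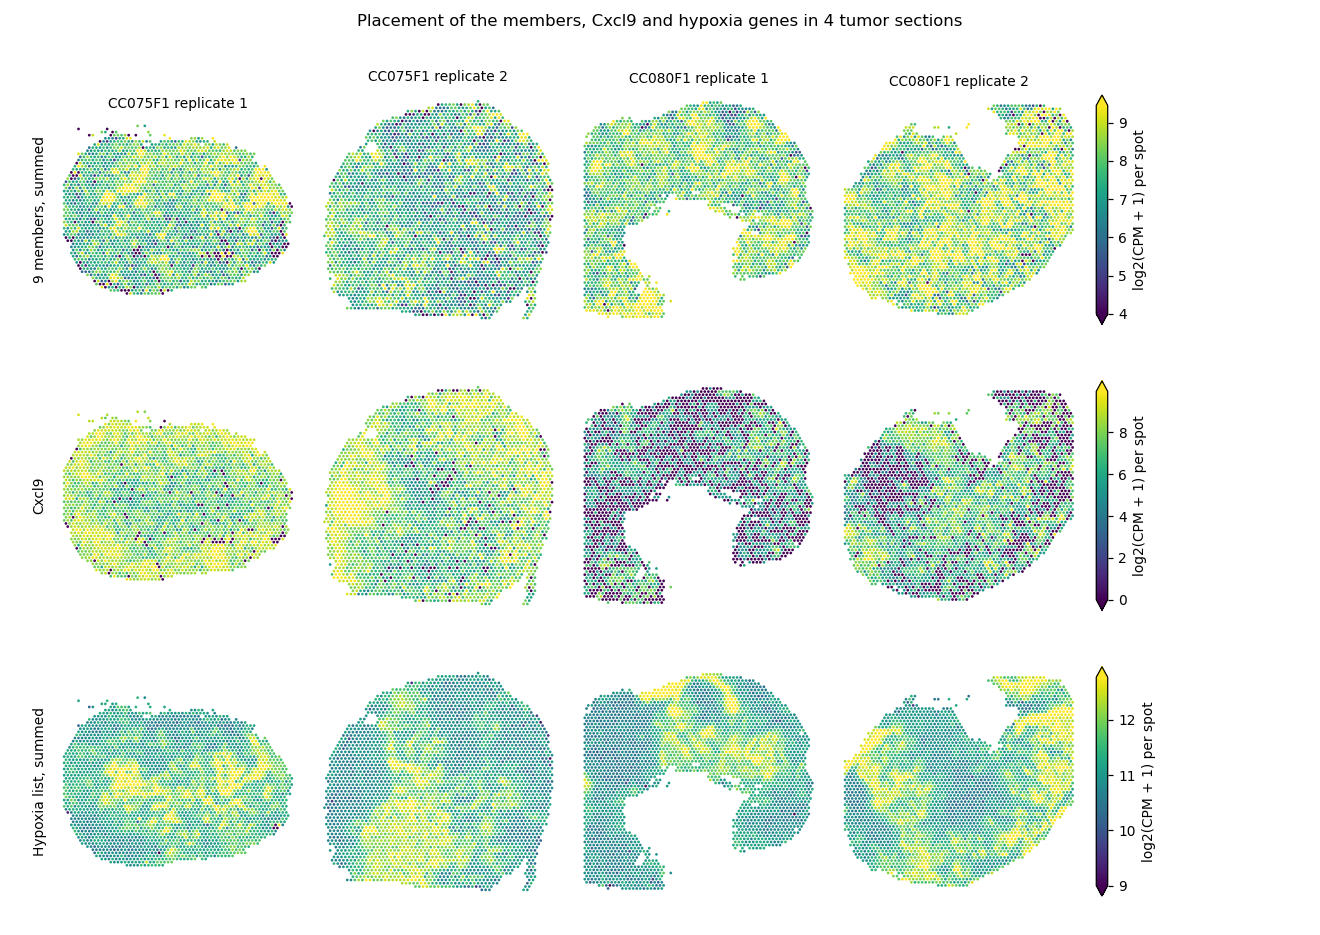
Maps of the 4 sections (columns), with each spot colored by log2(CPM + 1) of the 9 members summed (top row), Cxcl9 (middle row) and the summed hypoxia list (bottom row), on a color range fixed per row with values beyond it at the end colors. The members form patches in every section, Cxcl9 forms larger fields and is low where the hypoxia list is bright, and CC080F1 replicate 1 has the lowest Cxcl9.

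Placement relative to the tumor edge did not separate members from Cxcl9 beyond the spread between sections. The edge was taken as spots within 3 steps of a position off the tissue. The log2 ratio of edge to interior for the summed members was -0.14 and 0.37 in CC075F1 and -0.05 and -0.33 in CC080F1. For Cxcl9 it was 0.73 and 0.55 in CC075F1 and -0.34 and -0.10 in CC080F1. The difference, members minus Cxcl9, averaged -0.246 ± 0.478 (SD, n = 4 sections), with an exact two-sided sign-flip p of 0.5 where 4 sections allow no less than 0.125. With an edge of 5 steps it was -0.468 (exact p 0.25), and without a section the 3-step value ran from -0.038, without CC075F1 replicate 1, to -0.426, without CC080F1 replicate 1. In CC075F1 replicate 1 it was -0.87, with Cxcl9 higher at the rim and the members not. In edgeR, 0 of 9 members were called between edge and interior, against 0.871% of 14345 genes. DESeq2 called 0 of 9 as well. In edgeR 2 of 9 members had an unadjusted p under 0.05, as did 2614 of the 14345 genes. The estimates ran from -0.29 (SE 0.16) for Ifit3b to 0.08 (SE 0.11) for Irf7. The difference of the edge ratio between crosses was called for 0 of 9, against 0.0837% of genes, and again for 0 of 9 by DESeq2. In edgeR 1 of 9 had an unadjusted p under 0.05, as did 1255 of the 14345 genes.

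Grouped by Cxcl9 itself, spots did differ in the members. Spots in the top 25% of their section for Cxcl9 were compared with the rest, as sums paired by section. Of 9 members, 7 were called, all higher, where 17.5% of 14438 genes were called (9.63% higher and 7.9% lower). Irf7 had the largest difference, 0.61 (SE 0.09, adjusted p 0.00245), followed by Usp18 at 0.55 (SE 0.08), Oasl2 at 0.48 (SE 0.06), Ifit3b at 0.44 (SE 0.12), Ifit3 at 0.36 (SE 0.09), Isg15 at 0.32 (SE 0.06) and Ifit2 at 0.29 (SE 0.05) on the log2 scale. The median of the 9 was 0.36 against -0.02 for all genes. Ifit1, at 0.11 (SE 0.07, adjusted p 0.283), and Rsad2, at 0.05 (SE 0.12, adjusted p 0.819), were not called. The 2 genes that did not pass are those whose rho with Cxcl9 was closest to 0. Both measures come from the same counts of the same spots, so neither is separate support for the other.

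The sections were not alike. The log2 ratio of CPM for Irf7 was 0.26 and 1.08 in CC075F1 and 0.82 and 0.62 in CC080F1, positive throughout. For Rsad2 it was -0.03 and -0.32 in CC075F1 and 0.46 and 0.32 in CC080F1, so the crosses lay on opposite sides of 0, as they did for 5.49% of genes. The test of that difference gave -0.61 (SE 0.13, adjusted p 0.416), and 0 of 9 members were called for a difference between the crosses (0.0139% of genes). DESeq2 called 0 of 9 too. In edgeR 4 of 9 members had an unadjusted p under 0.05, as did 798 of 14438 genes. When spots were grouped by the Cxcl9 of their neighbors, their own count left out, 1 of 9 members was called. That is no larger a share than the 1754 of 14407 genes called. The member was Oasl2, at 0.32 (SE 0.07, adjusted p 0.0208), and the members' median fell to 0.14. Leaving out CC080F1 replicate 2 left 4 of 9 called, Irf7, Usp18, Oasl2 and Ifit2, which passed in each fit that left out a section. Cxcl9-high spots were shallower in every section, with medians of 28322.5 to 35279 UMIs against 32234 to 43500 in the rest. At 10000 UMIs per spot 6 of 9 members were called, against 1220 of 12784 genes. With library size in place of TMM factors 2269 genes were higher and 408 lower, against 1391 and 1141.

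**Figure D4:**
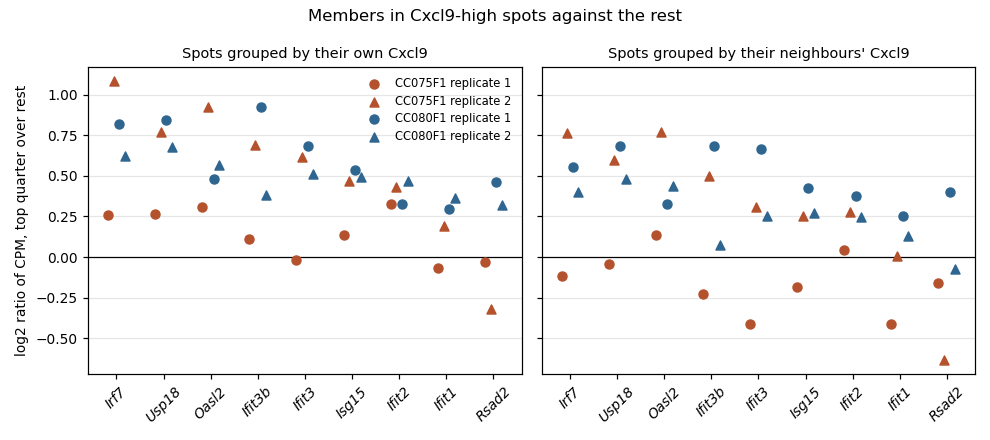
Log2 ratio of CPM in the top 25% of spots for Cxcl9 over the rest, for each member and section, with spots grouped by their own Cxcl9 (left) or by the mean Cxcl9 of their neighbors (right). On the left Irf7, Usp18 and Oasl2 lie above 0 in all 4 sections and Rsad2 below 0 in both CC075F1 sections, and on the right CC075F1 replicate 1 lies below 0 for every member but Ifit2 and Oasl2.

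Spots rich in the members were then described by their other genes. Spots in the top 10% of their section for the members' sum were compared with the rest. Member-high spots were shallower in every section, with medians of 28772.5 to 34093 UMIs against 31584 to 42741 in the rest. Of 14287 other genes, 836 (5.85%) were called, 670 higher (4.69%) and 166 lower (1.16%), or 800 and 46 with library size in place of TMM factors. All 30 tested of the other interferon-stimulated genes were higher, with a median of 0.95, among them Oas3 at 2.13 (SE 0.09), Oasl1 at 2.12 (SE 0.09), Ifi44 at 2.08 (SE 0.11) and Cmpk2, the neighbor of Rsad2, at 1.93 (SE 0.06). Of ISGF3, Stat2 was higher at 1.32 (SE 0.05) and Irf9 at 0.70 (SE 0.06). Of 13 nucleic acid sensing genes 6 were higher, led by the RNA sensors Dhx58 at 1.44 (SE 0.06) and Ifih1 at 1.11 (SE 0.06). Of the receptor list only Ifnar2 was called, at 0.17 (SE 0.04). Of 14 IFN-γ-led genes 11 were higher, with a median of 0.30, and Cxcl10 led them at 1.57 (SE 0.08), with Cxcl9 at 0.66 (SE 0.09, adjusted p 5.52e-05). Without CC080F1 replicate 2, 457 genes and 6 of the IFN-γ-led genes were called. At 10000 UMIs per spot it was 364 genes, with 29 of 29 interferon-stimulated genes among them. Ifnz, the only interferon gene with enough counts to test, differed by -0.02 (SE 0.35, adjusted p 0.987).

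Among marker lists, member-high spots were higher in 5 of 9 macrophage genes (median 0.21), 3 of 4 monocyte genes (0.92), 3 of 4 NK cell genes (0.71) and 4 of 6 fibroblast genes (0.40). The summed monocyte list went the other way in CC075F1 replicate 1, at 43.6 CPM in member-high spots and 58.5 CPM in the rest. None of 7 T cell genes, 5 endothelial genes, 6 conventional dendritic cell genes or 10 hypoxia genes was called, with medians of 0.18, 0.15, 0.31 and 0.07. Without CC075F1 replicate 1, 2 hypoxia genes were lower and the list's median was -0.12. All 5 tested skeletal muscle genes were higher (median 1.00). That list moved with 1 section: 26 of the 328 member-high spots of CC075F1 replicate 2 held over 1000 CPM of muscle, skin or fat markers, and 0 of 5 muscle genes were called without such spots (median 0.08), where all 30 interferon-stimulated genes still were (median 0.95). Cell cycle genes went the other way in part, with 3 of 9 lower (median -0.12).

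Cxcl9-high spots shared part of these companions and differed in others. Of 30 other interferon-stimulated genes 26 were higher there (median 0.30) and 1 lower, and 7 of 13 nucleic acid sensing genes were higher. So were 4 of 4 monocyte, 4 of 9 macrophage and 4 of 6 fibroblast genes, with 1 fibroblast gene lower. Of 10 hypoxia genes all 10 were lower there, with a median of -0.90, and 6 of 7 T cell genes (0.74), 5 of 5 endothelial genes (0.65) and 13 of 13 IFN-γ-led genes other than Cxcl9 (0.95) were higher. Since passing in 1 comparison and not in the other is no test of the difference, spots in the top 10% for the members alone were set directly against spots in the top 10% for Cxcl9 alone, 205 to 266 spots of each kind per section. Of 12038 genes other than the members and Cxcl9, 764 (6.35%) were called, 415 higher (3.45%) and 349 lower (2.9%) in the member spots. All 10 hypoxia genes were higher in the member spots, with a median of 1.23 on the log2 scale, among them Car9 at 2.36 (SE 0.34), Bnip3 at 1.97 (SE 0.26) and Slc2a1, a glucose transporter, at 1.46 (SE 0.17). These 3 are named after their values were seen. Of 13 IFN-γ-led genes 11 were lower, led by Ciita, the switch of MHC class II, at -1.52 (SE 0.18), and 4 of 6 T cell genes (median -0.73) and 3 of 5 endothelial genes (median -0.62) were lower too. Of the 4 plasmacytoid dendritic cell markers only 1 was tested, and it was higher in the member spots, at 1.31. A single gene does not stand for the cell type, and Siglech had only 5 to 33 UMIs in a whole section. Over all spots the summed list of these markers had a rho of -0.105 to -0.041 with the members' sum. Between member-high spots and the rest, 0 of 3 tested markers of that list were called.

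The summed hypoxia list showed this in each section. It measured 4149 CPM in member spots and 2200 CPM in Cxcl9 spots of CC075F1 replicate 1, and 3491 and 1875 CPM in CC075F1 replicate 2. In CC080F1 it measured 2628 and 2301 CPM in replicate 1 and 3300 and 2319 CPM in replicate 2. Spots high for neither had 3237, 3250, 2745 and 3411 CPM in the same order of sections. The member spots lay above the level of the rest in both CC075F1 sections and below it in both CC080F1 sections, and the Cxcl9 spots lay below it in all 4. Spots high for both had 2356, 1875, 2163 and 2499 CPM which is close to the level of the Cxcl9 spots.

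The interferon genes were compared in the same contrast. Of 29 other interferon-stimulated genes 25 were higher in the member spots and 0 lower, with Oasl1 at 1.91 (SE 0.11) and Cmpk2 at 1.80 (SE 0.10) in front. The list summed to 3188 CPM in member and 2260 CPM in Cxcl9 spots of CC075F1 replicate 1. In CC075F1 replicate 2 it was 3068 and 3097 CPM, without an excess. In CC080F1 it was 3076 and 2262 CPM in replicate 1 and 4153 and 3088 CPM in replicate 2. The log2 ratio of the nucleic acid sensing list was -0.25 in CC075F1 replicate 2 and 0.21 to 0.25 elsewhere. That of ISGF3 was -0.63 there and -0.10 to 0.21 elsewhere. Of 13 nucleic acid sensing genes 3 were higher and 1 lower, and 9 were not called. The higher ones were Dhx58 at 0.99 (SE 0.10), Ifih1 at 0.73 (SE 0.10) and Ddx58 at 0.48 (SE 0.06), and the lower one was Tmem173 (STING) at -0.40 (SE 0.09, adjusted p 0.0224). Stat2 was higher at 0.71 (SE 0.08). Irf9, at 0.19 (SE 0.08, adjusted p 0.188), and Cxcl10, at 0.36 (SE 0.15, adjusted p 0.194), were not called. Cxcl10 was instead highest in spots high for both, at 1330 and 909 CPM in CC075F1 and 899 and 1189 CPM in CC080F1, against 623, 401, 517 and 781 CPM in member spots and 494, 573, 267 and 578 CPM in Cxcl9 spots.

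**Figure D5:**
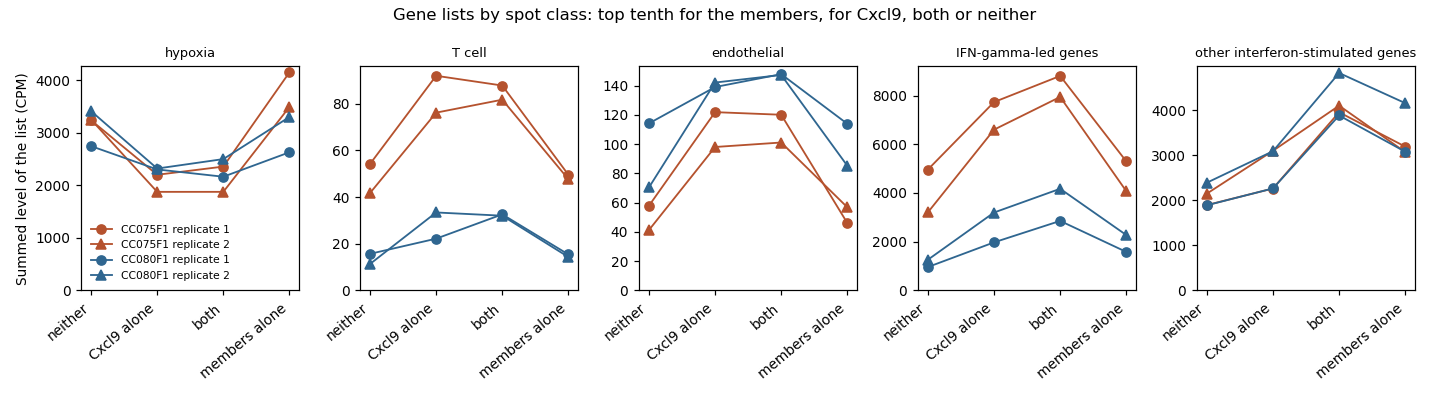
Summed CPM of 5 gene lists (members and Cxcl9 left out) in spots that are in the top 10% for neither, for Cxcl9 alone, for both or for the members alone, with 1 line per section (orange CC075F1, blue CC080F1, circles replicate 1, triangles replicate 2). Hypoxia genes dip and T cell, endothelial and IFN-γ-led genes peak in both classes that are high for Cxcl9, and the other interferon-stimulated genes peak where both are high.

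The contrast was chosen after these placements had been seen. The medians of the hypoxia, interferon-stimulated, IFN-γ-led and T cell lists kept their sign without any single section, while the calls depended on the section left out. Without CC080F1 replicate 2, 4 of 10 hypoxia genes, 11 of 29 interferon-stimulated genes, 7 of 13 IFN-γ-led genes and 1 of 6 T cell genes were called, with medians of 1.26, 0.53, -0.69 and -0.59. Without CC075F1 replicate 1 the counts were 8 of 10, 18 of 29, 8 of 12 and 1 of 6. The median depth was 29113.5 and 28974.5 UMIs in member and Cxcl9 spots of CC075F1 replicate 1, 35072.5 and 35904.5 in CC075F1 replicate 2, 33660 and 29299 in CC080F1 replicate 1 and 29918.5 and 32920 in CC080F1 replicate 2, so neither class was shallower throughout. Of the member spots of CC075F1 replicate 2, 26 of 260 held muscle, skin or fat markers. Without that section all 10 hypoxia genes and 28 of 29 interferon-stimulated genes were still higher.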

How the data were processed

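Visium libraries of 4 tumor sections were analysed. Per the file headers and the submitters' processing notes, the authors aligned reads with Space Ranger 1.3.1 to GRCm38 (GENCODE vM23) and used Seurat 5.0.1, and the deposited values are raw UMI counts per gene and spot under tissue, neither normalized nor pooled. The deposited tables of genes, barcodes and spot positions hold no measurement of expression. Groups were read from the labels, which call the sections biological replicates.

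Here UMIs were summed per section, or per section and spot class, and tested with the quasi-likelihood test of edgeR 4.0.16 in R 4.3.3 (TMM factors, filterByExpr, Benjamini-Hochberg adjustment over all genes tested, threshold 0.05). Spot classes were compared with the section as a block. Single values were tested by exact permutation over sections. P-values of tests between the crosses measure the spread between 2 sections per cross. Those of tests between spot classes measure the spread of the paired difference over 4 sections. Spearman correlations used spots with at least 1000 UMIs, and Moran's I used log2(CPM + 1) with a pseudocount of 1. Scripts were tested on simulated data. Genes named are the members, Cxcl9, up to 4 genes per pathway list with the largest change at a mean of 5 CPM or more, and the 10 genes most like the members. Some genes these rules name are not reported here. The members and lists were chosen with earlier results of these data known. Alternatives were other scaling, no filter, DESeq2 1.42.0, other spot classes, thinning to 10000 UMIs, a replicate block and leaving out each section. Sections held 82594649 to 146460975 UMIs, and intervals cover counting error only.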

Additional observations from a re-analysis of the deposited data

Results flagged for a closer look

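The edge to interior ratio of Cxcl9 differed between the crosses by 0.71 on the log2 scale (CC075F1 minus CC080F1, edgeR adjusted p 0.161), the CC075F1 sections having log2 ratios of 0.73 and 0.55, the CC080F1 sections -0.34 and -0.10. That of Oasl2 differed by 0.41 (adjusted p 0.312), the CC075F1 sections having 0.03 and 0.44, the CC080F1 sections -0.28 and -0.37. Every section of a cross moved in the direction opposite to those of the other cross in both genes, as in 13% of the 14345 genes tested. With an edge of 5 steps this held for Oasl2 and not for Cxcl9, whose ratio in CC080F1 replicate 2 turned to 0.22. The log2 ratio of Rsad2 in Cxcl9-high spots over the rest differed by -0.61 (adjusted p 0.416), with opposite directions of the crosses as in 5.49% of the 14438 genes tested. None of the 3 passed the adjusted threshold in edgeR.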

How the results depend on the processing

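No member was called between the crosses or between edge and interior under any alternative run. Genes called between the crosses numbered 14 against 40 with library size alone, 480 without a filter, 194 by DESeq2, 138 and 207 without CC080F1 replicates 1 and 2, and 287 with the replicate block, which called no member. Same-numbered sections correlated by 0.166 in their deviations from the strain means, and the labels state no pairing. Genes called at the edge numbered 125 against 683 without a filter, 596 by DESeq2, 39 at 5 steps, 417 without muscle, skin and fat spots and 1 to 854 without a section. Their difference between crosses was called for 12 genes against 532 without a filter, 69 by DESeq2 and 2 to 327 without a section.

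Of the members, 7 were called in Cxcl9-high spots, 4 to 7 without a section, and 1 with spots grouped by their neighbors' Cxcl9 (0 to 3 without a section), where Rsad2 turned to -0.18 and Ifit1 to -0.087. The genes called in Cxcl9-high spots numbered 2532 against 1754 with spots grouped by neighbors, 1220 in thinned spots and 697 to 3100 without a section. The difference between crosses in this Cxcl9-high ratio was called for 2 of 9 members without a filter, where 209 of 22506 genes were called. Without a section its estimate for Rsad2 ran from -0.85 to -0.41. Other genes called in member-high spots numbered 364 after thinning and 457 to 1012 without a section, and those of the direct contrast 159 to 1142. The members' median pair of 0.191 was 0.489 in tiles and 0.109 after thinning, Moran's I of 0.254 was 0.135 after thinning, and the overlap with Cxcl9 was 34.7% for the top 25%, where 25% of all spots qualify, against 19.0% for the top 10%, where 10% do. Strain estimates without a section ran from -0.92 to 0.11 for Isg15, -0.42 to 0.092 for Oasl2, -0.57 to 0.012 for Usp18, -0.97 to 0.024 for Rsad2, -0.83 to 0.11 for Ifit2, -0.95 to 0.0028 for Ifit3 and -1.12 to 0.018 for Ifit1, and that of Rsad2 in Cxcl9-high spots from -0.084 to 0.21. The causes were not tested. The 2 sections per cross limit what the strain tests can show.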

Other observations

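Ifnz, an interferon gene with 56 to 73 UMIs per section, was lower in Cxcl9-high spots by -0.83 on the log2 scale (SE 0.24, edgeR adjusted p 0.0401) and was named after its value was seen. The share of member-high spots lying within 3 steps of the edge was 19.2% and 33.8% in CC075F1 and 35.5% and 14.8% in CC080F1, against 20.3 to 31.6% of all spots.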
